A study of Mus musculus with 22 samples.

Results

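Receptor-type protein tyrosine phosphatases are membrane proteins with an adhesion-type outer part and phosphatase domains inside the cell. The 8 genes described here are Ptprd, Ptprs and Ptprf of the LAR type, Ptprt, Ptprk and Ptprm of the MAM type, and Ptprg and Ptprz1 of the type with a carbonic anhydrase-like domain. They were chosen by name, and their bins by position alone: all bins that overlap the gene in GENCODE release M21 on GRCm38 (mm10), which were 63 of the 26327 bins of 100 kb with a 5-methylcytosine (5mC) level and 15 of the 2641 bins of 1 Mb with a 5-hydroxymethylcytosine (5hmC) level. All of them passed the filter on low values, and 49 of the 63 lay wholly inside a gene. The family was proposed with earlier results of these data in view, so the levels and calls are given as a description of these genes and not as independent support for a pattern.

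The tissues were cortex (whole cerebral cortex without hippocampus), olfactory bulb and cerebellum of female C57BL/6 mice at 8 weeks of age, with no genetic change or treatment in any group. OxBS-seq, where chemical oxidation removes 5hmC before bisulfite and leaves 5mC as the base read as C, was done on 3 cortex, 2 olfactory bulb and 2 cerebellum libraries. TAB-seq, where a glucose shields 5hmC while TET oxidation removes 5mC, was done on 3 libraries per tissue. Replicates came from independent mice, and each tissue was used whole, so a level per cell and the mix of cell types cannot be told apart. The RNA-seq libraries of the same study were not analysed here.

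LAR-type receptors act at synapses, where the presynaptic receptor binds postsynaptic adhesion proteins such as Slitrk proteins, Il1rapl1 and Ntrk3, and where liprin-alpha proteins bind its inner part. MAM-type receptors bind copies of themselves on neighbouring cells. Ptprg and Ptprz1 bind contactins, and Ptprz1, a receptor of glial and neural precursor cells, also binds the growth factors pleiotrophin and midkine and the matrix protein tenascin. In neurons, 5hmC is made from 5mC by TET enzymes and is known to be abundant inside transcribed genes.

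The genes differ widely in length. Ptprd (ENSMUSG00000028399.18, chr4:75941238-78211961, minus strand) spans 2271 kb and 24 bins, of which only the last 5 in the direction of transcription hold coding exons, since its longest coding sequence begins 1887 kb from the gene's start. Ptprt (chr2:161521990-162661147, minus strand) spans 1139 kb and 12 bins. Ptprg (chr14:11553532-12242041, plus strand) and Ptprm (chr17:66666947-67354457, minus strand) span 689 kb and 688 kb, with 8 bins each. Ptprk (chr10:28074820-28597397, plus strand) has 6 bins and Ptprz1 (chr6:22875502-23052916, plus strand) has 3. Ptprs (chr17:56412426-56476483, minus strand) and Ptprf (chr4:118208213-118291405, minus strand) are 64.1 kb and 83.2 kb long and each lie inside 1 bin, which they share with the DNA around them.

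Most promoters of the family held more CpG, the dinucleotide that carries most 5mC, than the median promoter. RefSeq promoters (GRCm38.p6) were at hand for 7 of the 8 genes, not for Ptprd. In the 250 bases before the start, Ptprt held 39 CpG, Ptprk 38, Ptprm 37, Ptprg 31, Ptprz1 22, Ptprf 18 and Ptprs 15 at each of its 2 starts, against a median of 6 over 32851 promoters. A second start of Ptprg, at position 12189943, held 6. The sequences of the most CpG-rich promoter, of the gene that differs from the others in olfactory bulb, and of both starts of Ptprg are shown 5′ to 3′ on the strand of the gene, with each CpG in capitals, because the 100 kb bins around the starts of Ptprt and Ptprm and the first start of Ptprg were the lowest of their genes in cortex. The second start of Ptprg, which does not lie in such a bin, is shown beside the first.
Ptprt, chr2:162661148-162661397: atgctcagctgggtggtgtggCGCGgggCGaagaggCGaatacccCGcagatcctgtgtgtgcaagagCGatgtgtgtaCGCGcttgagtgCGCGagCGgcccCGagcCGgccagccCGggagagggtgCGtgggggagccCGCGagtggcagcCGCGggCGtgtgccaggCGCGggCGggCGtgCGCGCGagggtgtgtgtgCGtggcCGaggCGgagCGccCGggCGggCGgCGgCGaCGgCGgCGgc
Ptprm, chr17:67354460-67354709: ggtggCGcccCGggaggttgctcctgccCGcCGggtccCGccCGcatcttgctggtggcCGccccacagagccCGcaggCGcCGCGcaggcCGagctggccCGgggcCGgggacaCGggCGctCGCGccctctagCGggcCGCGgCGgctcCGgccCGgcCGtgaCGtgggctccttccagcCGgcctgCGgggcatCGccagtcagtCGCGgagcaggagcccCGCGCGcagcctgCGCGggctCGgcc
Ptprg first start, chr14:11553303-11553552: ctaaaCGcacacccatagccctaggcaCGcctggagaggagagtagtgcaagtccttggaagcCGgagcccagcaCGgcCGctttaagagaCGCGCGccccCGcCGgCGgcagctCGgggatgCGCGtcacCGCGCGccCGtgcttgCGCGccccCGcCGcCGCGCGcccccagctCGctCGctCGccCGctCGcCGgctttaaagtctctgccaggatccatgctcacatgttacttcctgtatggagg
Ptprg second start, chr14:12189693-12189942: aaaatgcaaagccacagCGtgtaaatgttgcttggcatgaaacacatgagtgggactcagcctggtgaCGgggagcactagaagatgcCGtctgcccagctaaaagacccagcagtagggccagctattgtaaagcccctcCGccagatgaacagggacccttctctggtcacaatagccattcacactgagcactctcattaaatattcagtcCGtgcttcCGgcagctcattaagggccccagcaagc
As many CpG as in Ptprt were found in 1.56% of promoters, and as many as in Ptprm in 2.20%. The share was 5.19% for the first start of Ptprg, 14.8% for Ptprz1, 21.7% for Ptprf and 27.3% for Ptprs. It was 50.4% for the second start of Ptprg. The bins that hold the starts of Ptprt and Ptprm and the first start of Ptprg had 1134, 1211 and 1137 CpG, so the promoter holds few of the CpG of its bin.

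Levels are fractions from 0 to 1, and the depth behind each bin is unknown, so the SD between libraries is the error given. Tests were made in limma on log2(level/(1 − level)) across all bins or all protein-coding genes, with Benjamini-Hochberg adjusted p under 0.05 as the threshold, and the change on that scale is called the log2 ratio change. The tissues differed over the whole genome. The median log2 ratio change over 25664 bins of 100 kb was 0.22 in olfactory bulb against cortex, 0.43 in cerebellum against cortex and 0.19 in cerebellum against olfactory bulb. For 5hmC, the medians over 2581 bins of 1 Mb were -0.24, -0.97 and -0.72. Each comparison is therefore also given with each library centred on its own median. The 3 comparisons share libraries and are not independent of each other. Cortex oxBS-seq replicate 3 had a mean level of 0.660 over the bins, lower than the 0.684 and 0.687 of the other cortex libraries.

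At the level of whole genes (the mean of the 100 kb bins that overlap a gene), cortex had the lowest 5mC of the 3 tissues in 6 of the 8 genes and cerebellum the highest in all 8. Ptprm and Ptprf had their lowest mean in olfactory bulb. Among the 6, Ptprs had overlapping libraries, with means of 0.469 for cortex and 0.472 for olfactory bulb. The median over all genes was also lowest in cortex, at 0.631, and highest in cerebellum, at 0.685. Cortex was lowest in 11 of 12 other receptor-type phosphatases and 21 of 27 partner genes, both described below. The share of all genes with such ranks is not given, so these counts do not set the 8 genes apart. Against cortex, 5mC in olfactory bulb rose in Ptprd, Ptprt, Ptprk, Ptprg and Ptprz1, where 26.4% of 21718 genes rose, and fell in Ptprm, where 0.866% of genes fell. In cerebellum against cortex it rose in 8 of 8, as it did in 55.1% of genes, while 4.26% fell. In cerebellum against olfactory bulb it rose in 4 of 8 (Ptprf, Ptprk, Ptprm and Ptprz1), beside 18.0% of genes, and fell in 0, beside 7.69%. The median difference of the 8 genes was 0.0570, 0.108 and 0.0550 in these comparisons, and that of all genes 0.0300, 0.0444 and 0.0118. Without either of the olfactory bulb libraries, only Ptprd and Ptprg were called in olfactory bulb against cortex. Without cortex replicate 3, 7 genes rose in cerebellum against olfactory bulb, for which the share of all genes is not given.

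Measured against the shift of all genes, fewer of these calls were left. With libraries centred, Ptprd and Ptprg rose in olfactory bulb against cortex (3.56% of genes rose) and Ptprm and Ptprf fell (4.73%). In cerebellum against cortex, 6 genes rose (15.3%), all except Ptprs and Ptprf, and 0 fell (26.5%). In cerebellum against olfactory bulb Ptprf, Ptprk, Ptprm and Ptprz1 rose (13.7%), and 0 fell (21.9%). The sign for Ptprs turned with centring, from 0.02 to -0.19 in olfactory bulb against cortex and from 0.29 to -0.06 in cerebellum against cortex.

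**Figure D1:**
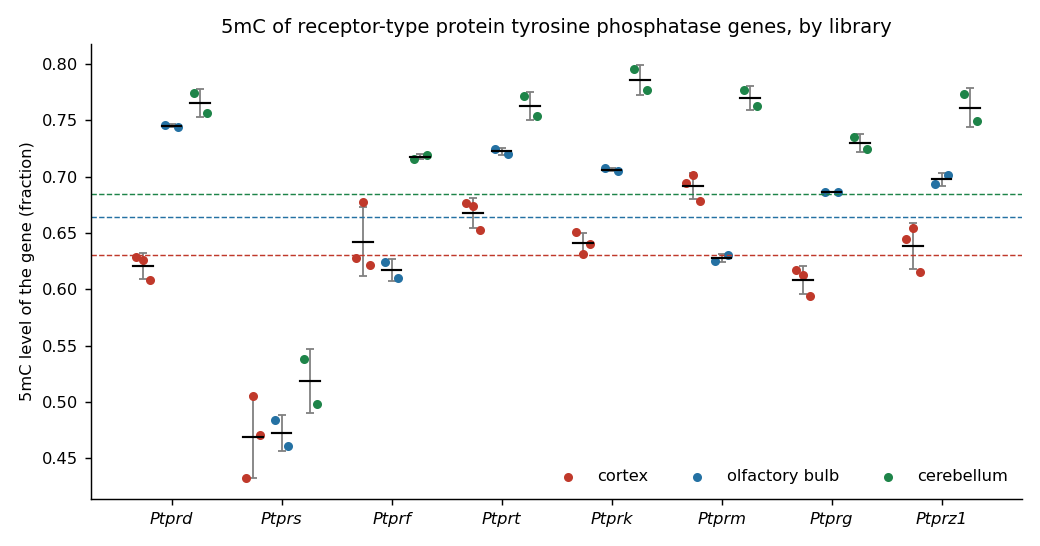
The y axis gives the 5mC level (fraction) of each gene on the x axis, with 1 point per oxBS-seq library, the mean as a black bar and the SD in grey, and dashed lines at the median over all protein-coding genes in each tissue. Ptprm has its olfactory bulb libraries (0.625 and 0.630) below all of its cortex libraries, while Ptprd has them at 0.746 and 0.744, above all of its cortex libraries.

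Among the LAR-type genes, Ptprd, a presynaptic organizer, had the largest rise of the family in olfactory bulb. Its 5mC level was 0.629, 0.626 and 0.608 in the cortex libraries, 0.746 and 0.744 in olfactory bulb, and 0.774 and 0.756 in cerebellum. Cortex lay below all libraries of the other tissues, and the cerebellum libraries lay just above those of olfactory bulb. The difference was 0.124 in olfactory bulb (log2 ratio change 0.84 ± 0.11 SE, limma adjusted p = 1.62e-07) and 0.145 in cerebellum (1.00 ± 0.11, adjusted p = 9.89e-11) against cortex. Between cerebellum and olfactory bulb it was 0.0203 (adjusted p = 0.365).

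Ptprs and Ptprf, with 1 bin each, showed less. Ptprs, a receptor for proteoglycans that limits axon growth, was at 0.432, 0.505 and 0.471 in cortex, 0.484 and 0.461 in olfactory bulb, and 0.539 and 0.499 in cerebellum. The tissues overlapped except that both cerebellum libraries lay above both of olfactory bulb, and 1 call was made, in cerebellum against cortex (adjusted p = 0.0335), which was lost when bins at 0 or 1 were kept in the fit (adjusted p = 0.0548). Its log2 ratio change there was 0.29, and 0.18 without cortex replicate 1 (adjusted p = 0.276) and 0.17 without cerebellum replicate 1 (adjusted p = 0.402). Ptprf, the LAR gene itself, was at 0.628, 0.678 and 0.621 in cortex, 0.624 and 0.610 in olfactory bulb, and 0.716 and 0.719 in cerebellum. Cerebellum stood above all other libraries, with adjusted p = 0.000261 against cortex and 5.65e-05 against olfactory bulb, and olfactory bulb overlapped cortex (adjusted p = 0.278).

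Of the MAM-type genes, Ptprt and Ptprk rose in steps from cortex to olfactory bulb to cerebellum, and Ptprm did not. Ptprt, expressed mostly in the brain, was at 0.676, 0.674 and 0.653 in cortex, 0.724 and 0.721 in olfactory bulb, and 0.771 and 0.754 in cerebellum. Ptprk, a receptor linked to catenins at cell contacts, was at 0.651, 0.632 and 0.640, at 0.708 and 0.705, and at 0.796 and 0.777. The 3 tissues did not overlap in either gene. Ptprk differed in each pair (adjusted p = 0.00425, 2.02e-11 and 0.000108 for olfactory bulb against cortex, cerebellum against cortex and cerebellum against olfactory bulb). Ptprt differed from cortex in both other tissues (adjusted p = 0.0127 and 1.37e-06), and for cerebellum against olfactory bulb the adjusted p was 0.0618.

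Ptprm, a homophilic adhesion receptor, was the member with the least 5mC in olfactory bulb relative to cortex. Its level was 0.694, 0.701 and 0.679 in cortex, 0.625 and 0.630 in olfactory bulb, and 0.777 and 0.763 in cerebellum, so that the 3 tissues were apart in the order olfactory bulb, cortex, cerebellum. Olfactory bulb was lower than cortex by 0.0636 (log2 ratio change -0.41 ± 0.11 SE, limma adjusted p = 0.00632), and with libraries centred the change was -0.62 (adjusted p = 0.000484). Without olfactory bulb replicate 1 or replicate 2 the uncentred change was -0.39 and -0.43, and neither was called (adjusted p = 0.122 and 0.0610). Cerebellum was higher than olfactory bulb by 0.142 (0.99 ± 0.12, adjusted p = 2.68e-09), the largest difference between these tissues in the family.

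The carbonic anhydrase-like pair rose in the same order as Ptprt and Ptprk. Ptprg was at 0.617, 0.613 and 0.595 in cortex, 0.686 and 0.686 in olfactory bulb, and 0.736 and 0.724 in cerebellum. Ptprz1 was at 0.645, 0.655 and 0.616 in cortex, 0.694 and 0.702 in olfactory bulb, and 0.774 and 0.749 in cerebellum. No tissue overlapped another in either gene. The adjusted p was 0.00116 for Ptprg and 0.0108 for Ptprz1 in olfactory bulb against cortex, 3.33e-08 and 9.67e-09 in cerebellum against cortex, and 0.0576 and 0.00346 in cerebellum against olfactory bulb. The last call, of Ptprz1, was lost without olfactory bulb replicate 1 (adjusted p = 0.0571) or cerebellum replicate 1 (adjusted p = 0.120).

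Bin by bin, the changes covered all bins of some genes and part of the bins of others. Between olfactory bulb and cortex, 50 of the 63 bins rose, beside 37.6% of all bins, and 6 fell, beside 2.18%. All 6 that fell were in Ptprm, and all 24 bins of Ptprd and all 8 of Ptprg rose. With libraries centred, 35 rose (8.81% of all bins) and 9 fell (9.9%), which were the 8 bins of Ptprm and that of Ptprf. The bins that rose were 24 of 24 in Ptprd, 5 of 8 in Ptprg, 3 of 12 in Ptprt, 2 of 6 in Ptprk and 1 of 3 in Ptprz1. In cerebellum against cortex 61 bins rose (71.9%) and 0 fell (4.44%), and with centring 50 rose (25.7%) and 2 fell (24.3%), of which 1 was in Ptprd and 1 in Ptprm. In cerebellum against olfactory bulb 42 rose (35.3%) and 4 fell (7.69%), all 4 in Ptprd, and with centring 27 rose (22.1%) and 5 fell (21.3%), again all in Ptprd. Without olfactory bulb replicate 1, olfactory bulb replicate 2 or cerebellum replicate 1, the 46 calls of this last comparison became 28, 24 and 22. Neighbouring bins of 1 gene come from the same libraries and 24 of the 63 are of Ptprd, so bins are not independent measurements. The p-value of a bin uses a spread shared almost wholly over all bins, not that of the bin alone.

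**Figure D2:**
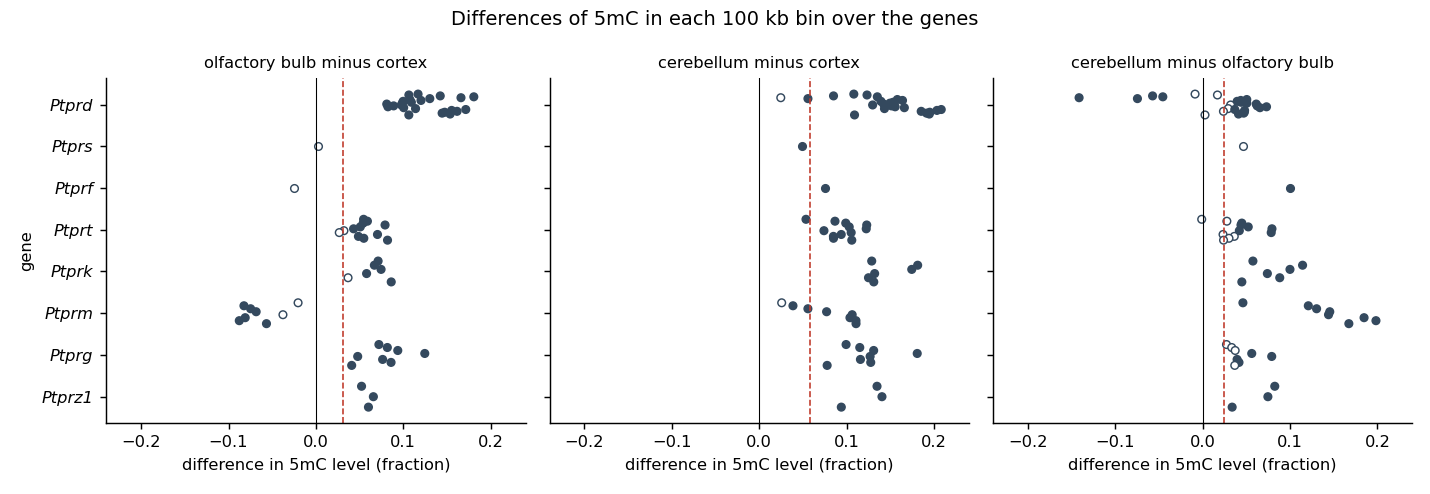
Each point is a 100 kb bin over the gene on the y axis, the x axis gives the difference in mean 5mC level (fraction) for 1 pair of tissues per panel, filled points have a limma adjusted p under 0.05, and the dashed line marks the median over all bins. The bins of Ptprm lie between -0.0877 and -0.0204 in olfactory bulb against cortex, where those of Ptprd lie between 0.0811 and 0.181.

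Along Ptprd, the level was not even. In cerebellum the 19 bins without coding exons averaged 0.796 and 0.775 in the 2 libraries and the 5 with coding exons 0.692 and 0.685. In cortex the former averaged 0.634, 0.634 and 0.616 and the latter 0.608, 0.593 and 0.578, and in olfactory bulb 0.749 and 0.747 against 0.736 and 0.735. The step from the one to the other was therefore -0.0974 ± 0.0094 (SD, n = 2) in cerebellum, -0.0350 ± 0.0076 (n = 3) in cortex and -0.0121 ± 0.0013 (n = 2) in olfactory bulb. This split was made after the values were seen and has no test.

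The lowest point of Ptprd lay where the coding part begins. The bin at chr4:76400001-76500000, just before that point, was the lowest in cortex, at 0.502, 0.540 and 0.512, with 0.663 and 0.634 in olfactory bulb and 0.588 and 0.559 in cerebellum. The next one, chr4:76300001-76400000, in which the longest coding sequence begins, was at 0.537, 0.534 and 0.549 in cortex, 0.713 and 0.698 in olfactory bulb, and 0.566 and 0.563 in cerebellum. There cerebellum was below olfactory bulb by 0.141 (limma adjusted p = 2.59e-10), the largest difference of these tissues in the gene, and its difference from cortex, 0.0246, was not called (adjusted p = 0.256) and was below the shift of all bins (-0.27 on the log2 ratio scale with libraries centred).

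Over most of the long part before the coding sequence, cerebellum was the highest. At chr4:77600001-77700000, the level was 0.617, 0.568 and 0.586 in cortex, 0.766 and 0.758 in olfactory bulb, and 0.804 and 0.794 in cerebellum, and the difference of cerebellum from cortex reached 0.208 (adjusted p = 2.77e-30). The largest difference of olfactory bulb from cortex was 0.181, from 0.547 ± 0.024 (SD, n = 3) to 0.728 ± 0.015 (n = 2), in the coding part at chr4:76200001-76300000 (adjusted p = 1.74e-18). The highest bin in cortex was chr4:77000001-77100000, at 0.671, 0.680 and 0.673. The 4 bins in which cerebellum fell against olfactory bulb ran side by side from 76100001 to 76500000.

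**Figure D3:**
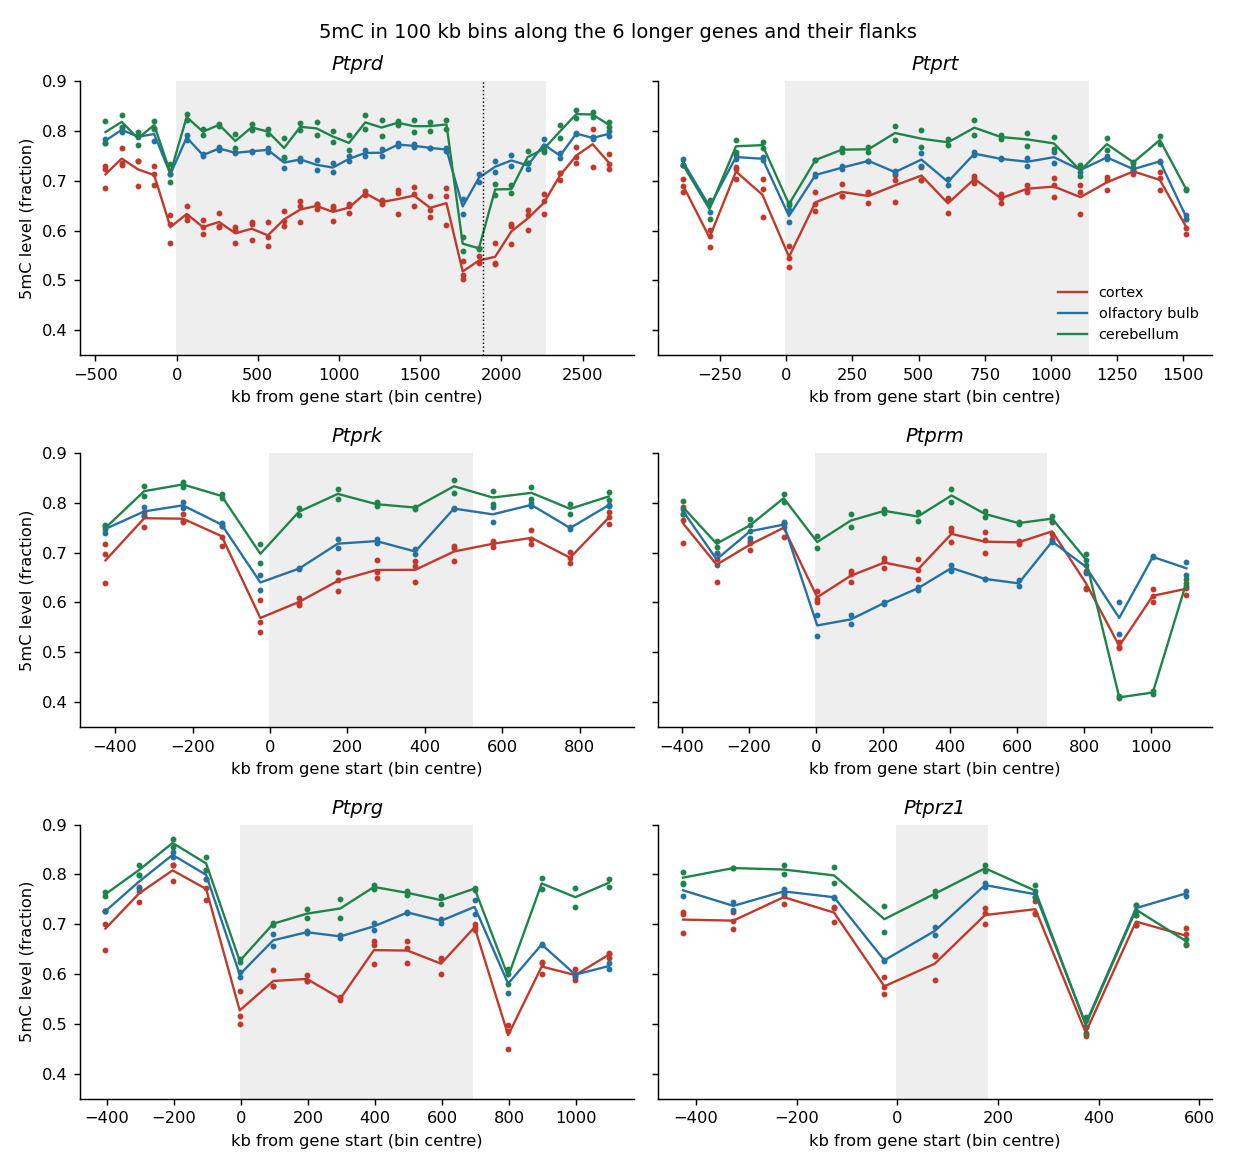
The x axis gives the distance of the centre of each 100 kb bin from the start of the gene in the direction of transcription (kb), the y axis the 5mC level (fraction), with points for libraries, lines for tissue means, the gene in grey and the first codon of the longest coding sequence of Ptprd as a dotted line. In Ptprd the cerebellum line drops to 0.564 beside the dotted line, close to cortex at 0.540, whereas olfactory bulb stays at 0.706, and in Ptprm the olfactory bulb line lies under the cortex line over the whole gene.

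Ptprm differed between tissues most towards its start. At chr17:67200001-67300000 the level was 0.656, 0.663 and 0.641 in cortex, 0.557 and 0.575 in olfactory bulb, and 0.777 and 0.751 in cerebellum. Olfactory bulb minus cortex was -0.0877 (adjusted p = 0.000109), and cerebellum was higher than olfactory bulb by 0.198 (adjusted p = 3.76e-21). In the last bin, chr17:66600001-66700000, which is the highest in cortex, the tissue means were 0.742, 0.722 and 0.768, and neither comparison with cortex passed the test (adjusted p = 0.280 and 0.113). All libraries of olfactory bulb lay below all those of cortex in 8 of 8 bins, beside 4.04% of all bins.

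In Ptprg, Ptprk, Ptprt and Ptprz1 the largest difference lay in a bin wholly inside the gene. Ptprg differed most at chr14:11800001-11900000, with 0.554, 0.548 and 0.552 in cortex, 0.672 and 0.679 in olfactory bulb, and 0.750 and 0.713 in cerebellum. Ptprk, in cerebellum against cortex, differed most at chr10:28100001-28200000, next to its start bin, with 0.601 ± 0.0079 (SD, n = 3) in cortex, 0.668 ± 0.00037 (n = 2) in olfactory bulb and 0.782 ± 0.011 (n = 2) in cerebellum. The largest difference of Ptprt was 0.123, cerebellum against cortex, at chr2:161800001-161900000, and that of Ptprz1 was 0.140, also cerebellum against cortex, at chr6:22900001-23000000. The adjusted p for cerebellum against cortex was 6.88e-20 in that bin of Ptprg, 4.54e-23 in Ptprk, 6.35e-13 in Ptprt and 2.71e-14 in Ptprz1.

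The bin that holds the start was low in 5mC in each of the genes with 3 or more bins, other than Ptprd. For Ptprt the start bin minus the mean of its other bins was -0.132 (cortex), -0.102 (olfactory bulb) and -0.119 (cerebellum), and between -0.118 and -0.0560 for Ptprk, Ptprm, Ptprg and Ptprz1 in any tissue. It was below 0 in 7 of 7 libraries in all 5 genes. In Ptprd it was below 0 in 5 of 7 libraries, with means of -0.0146, -0.0334 and -0.0518. The median over 1564 genes with as many bins was -0.0362, -0.0377 and -0.0377. The start bin was also the lowest bin in cortex in Ptprt, Ptprk, Ptprm, Ptprg and Ptprz1, and the bin that holds the end was the highest there in Ptprk, Ptprm, Ptprg and Ptprz1.

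The number of CpG in a bin went with its 5mC in a different way in cortex. Over the 63 bins, Spearman's rho between CpG number and 5mC was 0.080 for cortex, -0.745 for olfactory bulb and -0.550 for cerebellum, while over all 25664 bins it was -0.616, -0.635 and -0.593. The points share libraries and lie side by side, and 19 of them, the bins of Ptprd without coding exons, had a median of 473 CpG against 751 over all bins, so the values are a description.

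To set each gene beside its surroundings, the mean of the 100 kb bins within 500 kb on either side was taken from the gene level, in each library. Ptprd lay below its flanks in all 7 libraries, with gene minus flank at -0.114, -0.118 and -0.103 in cortex, -0.0417 and -0.0404 in olfactory bulb, and -0.0464 and -0.0455 in cerebellum. Ptprm was above its flanks in cortex, at 0.0259, 0.0308 and 0.0331, below them in olfactory bulb, at -0.0809 and -0.0554, and above them in cerebellum, at 0.117 and 0.116. Ptprk and Ptprg also lay below their flanks in 7 of 7 libraries, Ptprk by the most in cortex, with a mean of -0.0917, and by the least in cerebellum, with -0.0204.

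From cortex to olfactory bulb, gene minus flank rose in Ptprd by 0.0709 (limma adjusted p = 0.00578) and in Ptprg by 0.0474 (adjusted p = 0.0323), where 3.06% of 21681 genes rose, and it fell in Ptprm by 0.0981 (adjusted p = 0.00218), where 2.35% fell. Ptprg was no longer called there with flanks of 300 kb (0.0261, adjusted p = 0.231) or when any single library other than cortex replicate 3 was left out (adjusted p from 0.0659 to 0.152). In cerebellum against cortex 6 of 8 rose, all but Ptprs and Ptprg, where 11.4% of genes rose, and 0 fell, where 10.5% fell. In cerebellum against olfactory bulb Ptprf, Ptprk, Ptprm and Ptprz1 rose, where 9.89% rose, and 0 fell, where 10.6% fell. Without olfactory bulb replicate 1, cerebellum replicate 1 or cerebellum replicate 2, 2 genes were called there. The largest of these was 0.185, in Ptprm (adjusted p = 2.28e-05). Several of these calls were lost when 1 library was left out. In cerebellum against cortex, Ptprt lost its call without any 1 of the cortex and cerebellum libraries (adjusted p from 0.0601 to 0.194) and Ptprf without cortex replicate 1 or 3 or either cerebellum library (0.0529 to 0.205). Between cerebellum and olfactory bulb, Ptprk lost it without any 1 library of these tissues (0.0805 to 0.142) and Ptprz1 without olfactory bulb replicate 1 or either cerebellum library (0.0632 to 0.0848). Flanks of 300 kb ended the calls of Ptprf, Ptprt and Ptprk too (adjusted p = 0.102, 0.0524 and 0.0515).

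Part of the value of Ptprm in cerebellum came from its neighbours. Of its 8 flanking bins, those at chr17:66300001-66400000 and chr17:66400001-66500000, over Mtcl1 and Rab12, were at 0.419 ± 0.0037 and 0.409 ± 0.0030 (SD, n = 2) in cerebellum, and at 0.613 and 0.513 in cortex. With the median of the flanking bins in place of their mean, an alternative added after seeing the data, Ptprm stood at 0.0679 in cerebellum, 0.0320 in cortex and -0.0610 in olfactory bulb. The rise in cerebellum against cortex was then 0.0360 and not called (adjusted p = 0.0652), olfactory bulb minus cortex was -0.0929 (adjusted p = 0.00393), and the difference of cerebellum from olfactory bulb was 0.129 (adjusted p = 0.000196). With that median, Ptprf also lost its call in cerebellum against cortex (0.0352, adjusted p = 0.199) and Ptprz1 its call in cerebellum against olfactory bulb (0.0392, adjusted p = 0.0538), while Ptprg fell there (-0.0459, adjusted p = 0.0401).

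**Figure D4:**
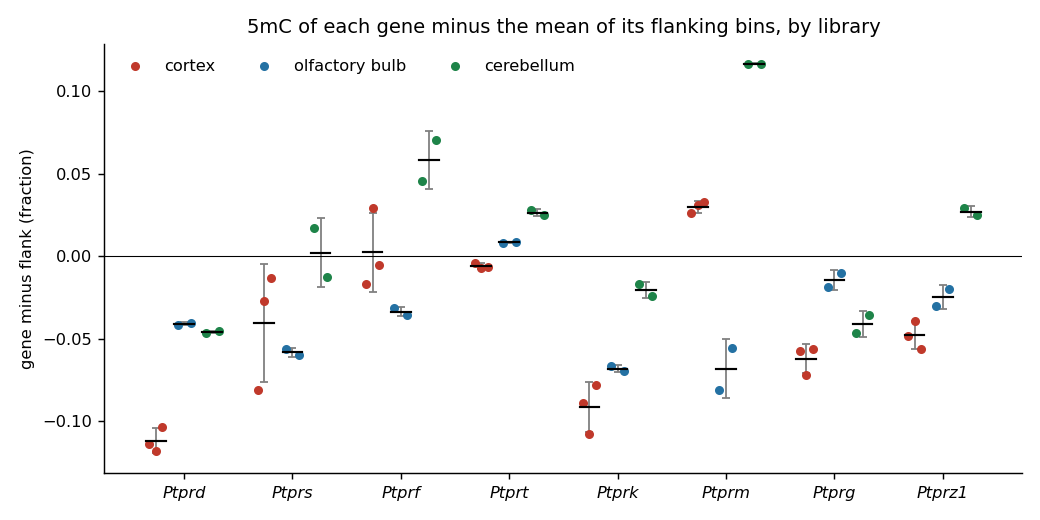
The y axis gives, for each gene on the x axis, its 5mC level minus the mean of its flanking bins (fraction), with 1 point per oxBS-seq library, the mean as a black bar and the SD in grey. Ptprm has cerebellum at 0.117 and 0.116 and olfactory bulb at -0.0809 and -0.0554, and Ptprd has cortex near -0.11 and the other tissues near -0.04.

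The 5hmC level was available only in bins of 1 Mb, which hold other genes too, apart from 3 bins in which Ptprd is the one protein-coding gene. Against cortex, 5hmC in olfactory bulb rose in 0 of the 15 bins (3.25% of all bins) and fell in 11 (67.7%). In cerebellum against cortex it rose in 1 (0.426%) and fell in 14 (97.6%), and in cerebellum against olfactory bulb it rose in 1 (1.2%) and fell in 13 (91.8%). These shares are near those of the whole genome. With libraries centred, 5 rose and 8 fell (36.2% and 33.0% of all bins), 10 rose and 5 fell (50.3% and 40.1%), and 9 rose and 5 fell (50.9% and 39.1%).

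Inside Ptprd the 5hmC of cerebellum differed between neighbouring bins. At chr4:76000001-77000000, which lies wholly in the gene and holds most of its coding exons, the level was 0.239, 0.261 and 0.231 in cortex, 0.163, 0.171 and 0.159 in olfactory bulb, and 0.178, 0.166 and 0.168 in cerebellum. At chr4:77000001-78000000, wholly in the gene without coding exons, it was 0.202, 0.221 and 0.199 in cortex, 0.129, 0.136 and 0.133 in olfactory bulb, and 0.0567, 0.0570 and 0.0588 in cerebellum. Cerebellum and olfactory bulb overlapped in the first bin (difference 0.00623, limma adjusted p = 0.390) and were apart in the second, where cerebellum was lower by 0.0753 (adjusted p = 8.90e-72).

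Relative to the shift of all bins, the 2 bins of Ptprd went opposite ways in cerebellum. Against cortex the log2 ratio change was -0.65 in the first and -2.10 in the second, and with libraries centred it was 0.40 and -1.06, so that the sign of the first turned. The bin that holds the start, chr4:78000001-79000000, had means of 0.144 ± 0.0096, 0.0961 ± 0.0031 and 0.0418 ± 0.00046 (SD, n = 3) in the same order of tissues. At the other end, chr4:75000001-76000000, of which the gene covers 5.88%, it was 0.152, 0.105 and 0.0845.

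Ptprm was the gene in which the mean 5hmC of olfactory bulb lay above that of cortex, in both of its bins. At chr17:66000001-67000000 the level was 0.204, 0.214 and 0.188 in cortex, 0.213, 0.219 and 0.210 in olfactory bulb, and 0.151, 0.146 and 0.152 in cerebellum. At chr17:67000001-68000000 it was 0.197, 0.211 and 0.193 in cortex, 0.201, 0.216 and 0.207 in olfactory bulb, and 0.0879, 0.0914 and 0.0940 in cerebellum. Cortex and olfactory bulb overlapped in both (adjusted p = 0.175 and 0.368), and cerebellum lay below both in each. Paired by replicate number, a pairing that the labels do not state, olfactory bulb was higher than cortex in 3 of 3 pairs in both bins. The pairing was chosen from these same data. A fit of these 2 tissues with the replicate number as a block gave a log2 ratio change of 0.11 in the first bin, which was then called (adjusted p = 0.0472). It gave 0.07 in the second bin, which was not called (adjusted p = 0.185). With libraries centred, olfactory bulb was higher than cortex by 0.35 and 0.31 on the log2 ratio scale (adjusted p = 2.38e-06 and 3.53e-06). The gene covers 33.3% of the first bin and 35.4% of the second.

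The bin that rose in cerebellum belongs to Ptprz1 only in small part. At chr6:23000001-24000000, of which Ptprz1 covers 5.29%, 5hmC was 0.160, 0.174 and 0.152 in cortex, 0.121, 0.126 and 0.122 in olfactory bulb, and 0.177, 0.182 and 0.180 in cerebellum. Cerebellum lay above all other libraries (adjusted p = 0.0136 against cortex and 2.77e-18 against olfactory bulb). Cadps2, a gene of dense-core vesicle release named here after its values were seen, covers 57.7% of the bin, and its 5mC was 0.676, 0.667 and 0.656 in cortex, 0.733 and 0.721 in olfactory bulb, and 0.620 and 0.610 in cerebellum. In the 100 kb bin that Ptprz1 shares with this stretch, 5mC was highest in cerebellum, at 0.812, after 0.779 in olfactory bulb and 0.719 in cortex. In the other bin of Ptprz1, chr6:22000001-23000000, 5hmC was 0.191 ± 0.010, 0.157 ± 0.0060 and 0.0790 ± 0.0016 (SD, n = 3), with cerebellum lowest.

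In the remaining bins cortex had the highest mean and cerebellum the lowest. Ptprk covers 52.3% of its bin, where cortex had 0.215 ± 0.013 (SD, n = 3), olfactory bulb 0.177 ± 0.0089 and cerebellum 0.0985 ± 0.0019. In Ptprg, the bin chr14:12000001-13000000 had 0.219 in cortex, 0.218 in olfactory bulb (adjusted p = 0.975 between them) and 0.140 in cerebellum, while chr14:11000001-12000000 had 0.228, 0.199 and 0.147. Ptprt had 0.211, 0.186 and 0.125 at chr2:162000001-163000000 and 0.195, 0.184 and 0.125 at chr2:161000001-162000000. The bins of Ptprs and Ptprf hold 42 and 27 protein-coding genes, so their values (0.167, 0.150 and 0.130, and 0.175, 0.142 and 0.111) say little of either gene.

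The 5hmC level can be set beside the mean 5mC of the 100 kb bins in the same 1 Mb, which comes from other libraries. At chr4:76000001-77000000 in Ptprd, the sum of both was 0.855 ± 0.022 in cortex (SDs of the assays combined), 0.902 ± 0.0072 in olfactory bulb and 0.901 ± 0.012 in cerebellum, and 5hmC made up 28.5%, 18.2% and 18.9% of it. At chr4:77000001-78000000 the sum was 0.835 ± 0.015, 0.881 ± 0.0037 and 0.853 ± 0.015, and the share of 5hmC 24.8%, 15.1% and 6.74%. In Ptprm, at chr17:67000001-68000000, the sum was 0.899 ± 0.019, 0.892 ± 0.0074 and 0.863 ± 0.012, with shares of 22.3%, 23.3% and 10.6%. The sums of cortex and olfactory bulb were apart by more than their SDs added together in these 2 bins of Ptprd and not in that of Ptprm. They were apart as well in the start bin of Ptprd, chr4:78000001-79000000 (0.839 ± 0.018 and 0.876 ± 0.0038). This was not particular to Ptprd. They were also apart at chr2:161000001-162000000 in Ptprt (0.871 ± 0.017 and 0.901 ± 0.0065) and chr14:12000001-13000000 in Ptprg (0.841 ± 0.018 and 0.880 ± 0.011). In other bins olfactory bulb was higher by less than the added SDs. These were the bin of Ptprk (0.890 ± 0.015 and 0.912 ± 0.0089) and chr2:162000001-163000000 in Ptprt (0.869 ± 0.022 and 0.896 ± 0.0067). The same held at chr14:11000001-12000000 in Ptprg (0.895 ± 0.023 and 0.923 ± 0.0066) and chr6:23000001-24000000 in Ptprz1 (0.845 ± 0.015 and 0.863 ± 0.0069). At chr4:75000001-76000000, the end of Ptprd, the sums were close (0.890 ± 0.019 and 0.892 ± 0.0067). The sums were not compared over all bins.

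**Figure D5:**
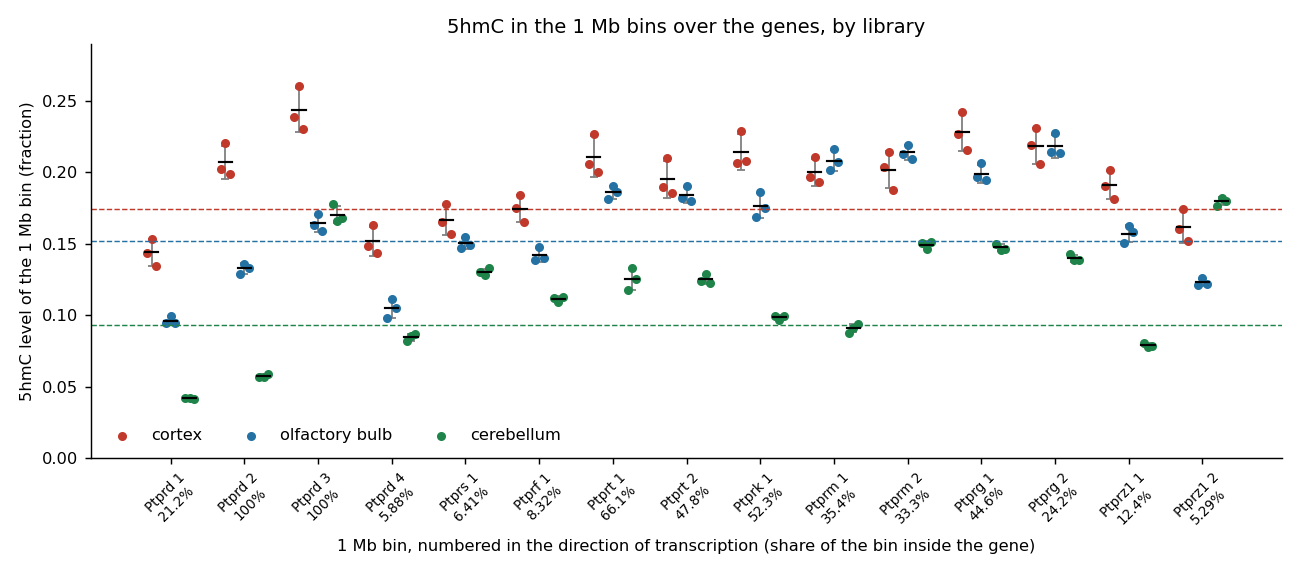
The y axis gives the 5hmC level (fraction) of each 1 Mb bin over the genes, numbered in the direction of transcription with the share of the bin inside the gene, with 1 point per TAB-seq library, the mean as a black bar, the SD in grey and dashed lines at the median over all bins in each tissue. Cerebellum is at 0.0575 in the second bin of Ptprd and at 0.171 in the third, and it stands above cortex and olfactory bulb in the second bin of Ptprz1.

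The other receptor-type phosphatases were set beside the 8 genes. Of 13 further genes of this class, 12 were tested (Ptprv had no level). In olfactory bulb against cortex 4 rose and 1 fell (26.4% and 0.866% of all genes), in cerebellum against cortex 8 rose and 0 fell (55.1% and 4.26%), and in cerebellum against olfactory bulb 5 rose and 1 fell (18.0% and 7.69%). With libraries centred, 1 rose and 1 fell (3.56% and 4.73% of all genes) in the first comparison. In the other comparisons, 4 rose and 1 fell (15.3% and 26.5%), and 5 rose and 2 fell (13.7% and 21.9%). Ptpro, a receptor of podocytes and neurons, had the tissue order of Ptprm, with cortex at 0.683 ± 0.0059, olfactory bulb at 0.573 ± 0.025 and cerebellum at 0.744 ± 0.015, with the largest fall of the list in olfactory bulb against cortex (-0.109, adjusted p = 1.53e-05) and the largest rise in cerebellum against olfactory bulb (0.171, adjusted p = 8.36e-11). Ptprj, a receptor first known from blood and endothelial cells, had the largest rise in olfactory bulb against cortex (0.0985, adjusted p = 0.000131) and the largest fall in cerebellum against olfactory bulb (-0.0878, adjusted p = 0.000869), and the lowest difference of cerebellum from cortex, 0.0107 (adjusted p = 0.651). Ptprn2, a dense-core vesicle protein, rose most in cerebellum against cortex (0.134, adjusted p = 4.71e-09).

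Ligands, postsynaptic partners and scaffold proteins of the family made a list of 27 genes, all tested. In olfactory bulb against cortex 10 rose and 0 fell (26.4% and 0.866% of all genes), in cerebellum against cortex 18 rose and 1 fell (55.1% and 4.26%), and in cerebellum against olfactory bulb 12 rose and 1 fell (18.0% and 7.69%). Their median differences were 0.0298, 0.0646 and 0.0304, beside 0.0300, 0.0444 and 0.0118 over all genes. Ptn, which encodes pleiotrophin, the ligand of Ptprz1, rose most in cerebellum against cortex, from 0.528 ± 0.018 (SD, n = 3) to 0.745 ± 0.0082 (n = 2) (adjusted p = 1.53e-15). The contactin gene Cntn3 rose most in olfactory bulb against cortex (0.0932, adjusted p = 2.37e-05), and Slitrk3, an inhibitory synapse partner of Ptprd, rose most in cerebellum against olfactory bulb (0.120, adjusted p = 2.63e-06).

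Without centring, 1 partner was called as falling, and falls were few over all genes too (0.866%, 4.26% and 7.69% in the 3 comparisons). Ppfia4, a liprin-alpha gene, had cortex at 0.587 ± 0.017, olfactory bulb at 0.652 ± 0.0023 and cerebellum at 0.511 ± 0.019, and fell in cerebellum against cortex (adjusted p = 0.000796) and against olfactory bulb (adjusted p = 2.27e-07). In olfactory bulb against cortex the lowest value was that of Lrrc4b, a postsynaptic partner of the LAR-type receptors, at -0.0207 (adjusted p = 0.417). With libraries centred, 6 partners rose and 2 fell in olfactory bulb against cortex (3.56% and 4.73% of all genes), 11 rose and 8 fell in cerebellum against cortex (15.3% and 26.5%), and 10 rose and 3 fell in cerebellum against olfactory bulb (13.7% and 21.9%).

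As a check of the tissues, the 5 marker genes of each were compared. The cortex markers had their lowest 5mC in cortex in 5 of 5. Cortex was also lowest in 4 of 5 oligodendrocyte, 4 of 5 astrocyte and 4 of 4 microglia markers. The median over all genes was lowest there too, at 0.631, beside 0.664 in olfactory bulb and 0.685 in cerebellum. The count for the cortex markers therefore cannot serve as a check of that tissue. Of the olfactory bulb markers and of the cerebellum markers, 3 of 5 had their lowest 5mC in the tissue they mark and 2 of 5 in cortex. The median level of 5 oligodendrocyte markers was 0.660, 0.707 and 0.680 in the order cortex, olfactory bulb, cerebellum, that of 5 astrocyte markers was 0.620, 0.653 and 0.720, and that of 4 microglia markers was 0.659, 0.687 and 0.717. The part of cell mixture in the differences of the 8 genes was not tested.

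For each member, the gene with the nearest pattern over the 7 oxBS-seq libraries was found by Euclidean distance among genes with at least 1 bin wholly inside. Ptprm lay nearest to Adarb2 (cortex 0.700, olfactory bulb 0.614, cerebellum 0.770, distance 0.0296), and Ptprd to Xkr4 (0.624, 0.753 and 0.754, distance 0.0248). Ptprt lay nearest to Eya1, Ptprk to Wdr17, Ptprg to Pcdh9 and Ptprz1 to Adgrl3, at distances from 0.0153 to 0.0249. Ptprf lay nearest to Upp2 (0.0400) and Ptprs to Gse1 (0.0880).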

How the data were processed

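Mouse cortex, olfactory bulb and cerebellum were profiled by oxBS-seq for 5mC (7 libraries) and TAB-seq for 5hmC (9 libraries). Per the labels and the study's methods, the authors mapped read pairs uniquely to mm10 with Bismark (version not given in the sources used here), called sites with a binomial test and a coverage minimum, and deposited 1 fraction (0 to 1) for each bin without counts or coverage. The paper reports an average genomic coverage per tissue, but the depth behind each bin is unknown. The sources used here do not say how sites were combined into a bin. The labels name no batches.

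Before testing, bins with a level of 0 or 1 in at least 1 library were removed (663 of 26327 for 5mC and 60 of 2641 for 5hmC). The gene level was the unweighted mean of the overlapping 100 kb bins (21718 protein-coding genes), and gene minus flank used bins wholly within 500 kb on either side (at least 5 bins, 21681 genes, fraction scale). The 5mC bins, the 5hmC bins, the gene levels (each as log2(level/(1 − level))) and gene minus flank (as fractions) each had 1 limma fit on the 3 tissues (version 3.58.1, R 4.3.3), and p-values were adjusted by Benjamini-Hochberg over all features of the fit. The spread was shrunk so strongly towards a common value that all 5hmC bins had 1 SE. The weight of the common value, in degrees of freedom, was 905 for the 5mC bins, 66.4 for the gene levels and 5.52 for gene minus flank. The SEs of the 5mC bins were thus nearly equal within a comparison. Very small p-values of bins rest on a spread shared over the genome and do not measure the spread between libraries in that bin. The fits were tested on simulated data. An exact test of single values could not go below p = 0.1 (3 against 3, or 2 against 3) or 0.333 (2 against 2). Python 3.11.15, numpy 2.4.6, pandas 2.3.3 and scipy 1.17.1 were used, with matplotlib 3.10.9 for plots.

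All 8 members were named, with their start bin, lowest and highest cortex bin and the bin of largest difference per pair of tissues; the 4 bins of Ptprd lower in cerebellum, the flanking bins of Ptprm and Cadps2 were picked after their values were seen. Of 13 related receptors and 27 partners, the largest rise and fall per pair on the log2 ratio scale were named. Members and lists were chosen with earlier results of these data known. Which mouse gave which library is not stated. Deviations of cortex and olfactory bulb TAB-seq libraries from their group means correlated from 0.126 to 0.344 in the 3 pairs with the same replicate number. The 6 others ran from -0.287 to -0.0188, which is not separate evidence, since the deviations within a group sum to 0. These libraries were treated as paired, by a fit with the replicate number as a block that was added after the data were seen. The pairing was thus chosen from these same data, and the correlations do not show that the number marks a mouse. Same-number correlations ran from -0.229 to 0.0743 with cerebellum TAB-seq and from -0.0906 to 0.0158 in oxBS-seq, which was not treated as paired. Promoter sequences came from RefSeq (GRCm38.p6), 250 bases before the start.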

Additional observations from a re-analysis of the deposited data

How the results depend on the processing

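Of 157 counts of called members under the alternatives, 148 stayed within 1.5 times the reported count. These counts join rises and falls, so a change of direction does not show in them. Apart from centring, the share of all features called under an alternative is not given. A changed count therefore does not speak of the members alone. In cerebellum against cortex, 15 5hmC bins were called with and without centring. Of these, 1 rose and 14 fell uncentred, and 10 rose and 5 fell centred. In cerebellum against olfactory bulb, the 46 called bins became 28, 24 and 22 without olfactory bulb replicate 1, olfactory bulb replicate 2 and cerebellum replicate 1, the 4 called genes became 7 without cortex replicate 3, and the 4 genes called against their flanks became 2 without olfactory bulb replicate 1, cerebellum replicate 1 or cerebellum replicate 2. In olfactory bulb against cortex, the 6 called genes became 2 without either olfactory bulb library, where the lone library was assumed to vary like the other tissues. With libraries left out in turn, the called 5mC bins ranged from 41 to 56, 57 to 62 and 22 to 51, the called genes from 2 to 6, 7 to 8 and 3 to 7, the genes called against their flanks from 2 to 3, 4 to 6 and 2 to 5, and the called 5hmC bins from 10 to 11, 14 to 15 and 14 to 14 in olfactory bulb against cortex, cerebellum against cortex and cerebellum against olfactory bulb.

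Of 1245 single results under the alternatives, 1146 kept direction and call, 54 lost the call, 16 gained it and 29 changed sign. Centring takes out the fall that nearly all 5hmC bins share, and 21 of their signs turned with it. The centred log2 ratio change was 0.067 for Ptprs, 0.14 and 0.015 for Ptprt and 0.24 for Ptprg (12000001) in olfactory bulb against cortex. It was 0.090 and 0.40 for Ptprd (75000001, 76000001), 0.63 for Ptprs, 0.29 for Ptprf, 0.28 and 0.14 for Ptprt, 0.52 for Ptprm (66000001), and 0.27 and 0.26 for Ptprg in cerebellum against cortex. In cerebellum against olfactory bulb it was 0.46 for Ptprd (75000001), 0.56 for Ptprs, 0.40 for Ptprf, 0.14 and 0.13 for Ptprt, 0.17 for Ptprm (66000001), and 0.28 and 0.022 for Ptprg. The 5hmC bin of Ptprg at 12000001, near 0 in olfactory bulb against cortex, ranged from -0.057 to 0.050 without single libraries. The gene level of Ptprs in that comparison was -0.19 with centring and ranged from -0.090 to 0.12 without single libraries, its cerebellum against cortex change was -0.056 with centring, and its gene minus flank difference in olfactory bulb against cortex was 0.0012 with flanks of 300 kb. The cause of the changes other than centring was not tested.

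Cortex and olfactory bulb TAB-seq libraries were treated as paired by replicate number, although no label states that the number marks a mouse. A block on these 2 tissues alone gave 12 called 5hmC bins in place of 11. The bin of Ptprm at 66000001 was added and no other call changed. That added call depends on the assumed pairing. The other libraries were not treated as paired. With the replicate number as a block over all 3 tissues, the called genes were 6, 8 and 6, the genes called against their flanks 2, 5 and 4, the called 5mC bins 56, 61 and 51, and the called 5hmC bins 11, 15 and 14 in the same order of comparisons. The shares of all features called in these block fits are not given either. The depth of a bin is not known, so no value has a counting error. With 2 oxBS-seq libraries of olfactory bulb and of cerebellum, the SD between libraries is itself uncertain.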
